A study of Mus musculus with 6 samples.

Results

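The genes described here encode the core, the scaffold and the adaptor proteins of elastic fibres: elastin (Eln), fibrillin-1 and fibrillin-2 (Fbn1, Fbn2), 5 fibulins (Fbln1, Fbln2, Fbln5, Efemp1 and Efemp2) and 2 microfibril-associated proteins (Mfap4, Mfap5). They were chosen by name as a family of extracellular matrix genes, 10 in all. Of these, 8 had a probe set annotated to exactly 1 gene, each had a single such set, and all 8 passed the filter on dim signals, so they stand among 17020 genes tested. Fbn1 and Efemp2 were not analysed here. The RNA came from chondrocytes of the growth plate, the cartilage layer through which a bone grows longer, isolated from the femurs and tibiae of mice at postnatal day 30. Control animals and conditional Lkb1 mutants (Lkb1 is the older name of the kinase gene Stk11) gave 3 arrays each, all on a mixed FVB, 129S6 and C57CL/6 background as the labels spell it. The driver of the conditional mutation, the genotype of the controls and the pooling of animals are not given in the sources used here. Replicates are labelled biological, with no word on whether each is its own animal. The p-values below therefore rest on the spread among these 6 samples, and how far this is spread between animals is not known.

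Elastic fibres give stretch and recoil to tissues such as arteries, lung, skin and the perichondrium. Fibrillins first assemble into microfibrils, on which tropoelastin is deposited with the help of fibulins and then cross-linked by lysyl oxidases into insoluble elastin. Microfibrils also hold latent TGF-beta through its binding proteins. Hyaline cartilage is built mainly on type II collagen and aggrecan. Microfibrils are a known part of cartilage matrix, whereas mature elastic fibres are typical of elastic cartilage and of fibrous tissue around bones rather than of the growth plate.

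Of the 8 measured genes, 6 were higher in the mutants, namely Eln, Fbln1, Fbln2, Fbln5, Efemp1 and Mfap4. None was called lower, also at an unadjusted p of 0.05 (limma). Among all genes tested, 7.84% were called higher and 6.82% lower by the same rule, a limma adjusted p of at most 0.05. The median difference of the 8 genes was 0.95 on the log2 scale, against 0.03 over all genes tested. Every mutant array lay above every control array for 7 of the 8 genes, which holds for 20.0% of all genes. Mfap5 was the exception, and Fbn2 separated the groups by too small a margin to be called. A level is given throughout as log2(intensity + 1) and a difference as mutant minus control on that scale, which understates the fold change of a dim gene.

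**Figure D1:**
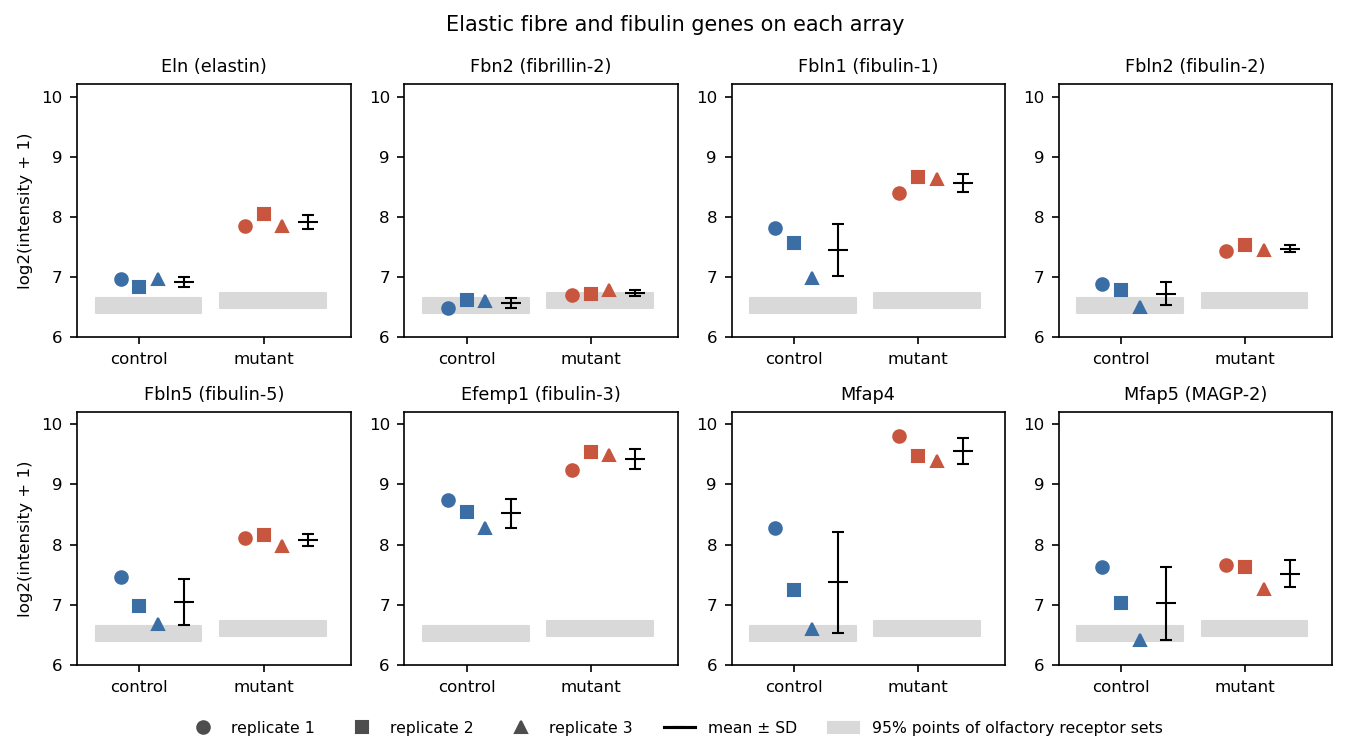
Level of each measured gene, as log2(intensity + 1), on the 3 control (blue) and 3 mutant (red) arrays; symbols give the replicate number, black bars the mean ± SD, and grey bands the range of the 95% points of olfactory receptor probe sets in each group. Mutant points lie above all control points for 7 genes and overlap them for Mfap5, and Fbn2 lies at the grey band in both groups.

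Cartilage identity was clear on all arrays. All 12 chondrocyte markers, Col2a1 and Acan among them, exceeded background on every array, and none was called different (median difference -0.08). Of 6 markers of hypertrophic chondrocytes, the enlarged cells next to the bone, all above background on every array, 1 rose and 3 fell: Mmp13, a collagenase, by 2.23, against -1.13 for Pth1r, -0.87 for Panx3 and -0.50 for Col10a1. The Col10a1 call ended on leaving out mutant replicate 1 or 2. Background was taken as the 95% point of 1035 olfactory receptor probe sets, between 6.40 and 6.73 per array. Stk11 was at 8.68, 9.08 and 9.67 in the controls and between 7.39 and 7.52 in the mutants, a difference of -1.67 (limma adjusted p = 0.00387). That difference was 0.27 with the marrow marker mean as a covariate, and where its probes lie relative to the mutated part was not analysed here. Transcripts of other cells moved with the groups. Averaged over 26 markers of red cell precursors, neutrophils and B lymphoid cells, the marrow signal was 8.28, 8.98 and 9.71 on the arrays of control replicates 1, 2 and 3, and between 5.85 and 6.15 in the mutants. Of these 26 genes, 22 were called lower and none higher. Xist, a transcript of female cells, was at 5.47 in control replicate 2 and between 10.62 and 10.89 on the other arrays, so the controls included a sample that differed from all others in this marker.

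Elastin, the stretchable core protein, had the smallest standard error of the 6 called members. The level of Eln on replicates 1, 2 and 3 was 6.97, 6.83 and 6.97 for the controls and 7.85, 8.04 and 7.85 for the mutants, the order kept for every gene below. All 6 values exceeded background, and the lowest mutant exceeded the highest control by 0.88. Eln rose by 0.99 (SE 0.10, 95% interval 0.77 to 1.22, n = 3 per group), 1.99-fold, with a limma adjusted p of 0.00116. Among the controls, 6 of the other members and 21.4% of all genes tested fell as the marrow markers rose. Eln had no such order, with the controls of least and most marrow signal both at 6.97. The Eln difference stayed at 0.95 against control replicate 1 alone, the array with the least marrow signal. It was 1.07 with the marrow mean as a covariate and 1.03 with the mean of 12 fibrous tissue markers as a covariate, where the adjusted p was 0.147 and 0.195. Both means separate the groups completely, and how far the Eln rise goes with marrow content was not tested.

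The measured fibrillin gene was not called. Fbn2 encodes the fibrillin known mainly from embryonic and growing microfibrils. Its level was 6.48, 6.63 and 6.60 in the controls and 6.70, 6.72 and 6.78 in the mutants. These values straddle the background, which was exceeded on 2 of 3 arrays in each group. The groups did not overlap, with a gap of 0.07, but the difference of 0.16 (95% interval -0.04 to 0.37) was not called (limma adjusted p = 0.254). The size of any change at this signal is limited by background.

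The 2 microfibril-associated genes behaved differently. Mfap4, a fibrinogen-related protein that binds elastin and fibrillin and is abundant around smooth muscle, was at 8.27, 7.25 and 6.60 in the controls and 9.81, 9.47 and 9.39 in the mutants. It had the widest spread among the controls (SD 0.84) of the 8 genes, and control replicate 3 did not exceed background. The mean difference was 2.18 (SE 0.37, 95% interval 1.31 to 3.05), 4.53-fold, with a limma adjusted p of 0.00957. Among all genes tested this was the rise of rank 27. Against control replicate 1 alone the Mfap4 difference was 1.28.

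Mfap5 encodes MAGP-2, a small protein of fibrillin microfibrils. Its level was 7.63, 7.02 and 6.42 in the controls and 7.67, 7.63 and 7.26 in the mutants. The value of control replicate 3 did not exceed background. Control replicate 1 matched mutant replicate 2 to 2 decimals and exceeded mutant replicate 3, so the groups overlapped. The difference of 0.49 (SE 0.28, 95% interval -0.16 to 1.15) was not called (limma adjusted p = 0.295). Without control replicate 1 it was 0.80 and called (adjusted p = 0.0355), and against control replicate 1 alone it was -0.11. Per array, the Mfap5 level minus the Mfap4 level was -0.35 ± 0.25 in the controls and -2.04 ± 0.17 in the mutants (SD, n = 3 each). Neither gene exceeded background on control replicate 3, which limits this quantity on that array. This quantity moved by -1.68, so Mfap5 gained less than Mfap4. With the marrow and the fibrous mean as a covariate it was -0.67 and -1.11. The exact two-sided permutation test gave p = 0.1, the smallest that 3 against 3 arrays allow, and 0.1 after Benjamini-Hochberg adjustment over the 2 pairs tested.

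The 4 fibulin genes measured among the members rose, by 0.75 to 1.11 on the log2 scale, while Fbln7, a further fibulin outside the members, differed by -0.20 and was not called. Fibulin-1, a calcium-binding adaptor that associates with elastin and with basement membranes, had the largest of these differences. Fbln1 was at 7.82, 7.56 and 6.98 in the controls and 8.40, 8.66 and 8.63 in the mutants. It rose by 1.11 (SE 0.21, 95% interval 0.63 to 1.59), 2.16-fold, with a limma adjusted p of 0.0125. Leaving out mutant replicate 2 or mutant replicate 3 ended this call, at an adjusted p of 0.0541 and 0.0585.

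Fibulin-5, which tethers tropoelastin to microfibrils and carries an integrin-binding RGD motif, is required for normal elastic fibres in mice. Fbln5 was at 7.46, 6.99 and 6.69 in the controls and 8.11, 8.16 and 7.97 in the mutants. It rose by 1.04 (SE 0.19, 95% interval 0.61 to 1.47), 2.05-fold, with a limma adjusted p of 0.0110. The groups stood 0.52 apart at their nearest arrays, and the control spread (SD 0.39) was 4.02 times that of the mutants. Against control replicate 1 alone the Fbln5 difference was 0.62.

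Efemp1, which encodes fibulin-3, a short fibulin of fascia and other connective tissues, was at 8.75, 8.54 and 8.27 in the controls and 9.23, 9.55 and 9.49 in the mutants. The difference was 0.90 (SE 0.14, 95% interval 0.57 to 1.24), 1.87-fold, with a limma adjusted p of 0.00748. Fbln2, a larger fibulin found in developing cartilage, heart valves and vessel walls, was at 6.89, 6.78 and 6.51 in the controls and 7.42, 7.53 and 7.46 in the mutants. It rose by 0.75 (SE 0.12, 95% interval 0.48 to 1.02), 1.68-fold, with a limma adjusted p of 0.00656. Control replicate 3 did not exceed background for Fbln2, so its fold change is limited by background. The Fbln2 level minus the Fbln1 level was -0.73 ± 0.23 in the controls and -1.09 ± 0.11 in the mutants (SD, n = 3 each), with the same exact permutation p of 0.1. This quantity moved by -0.37, by -0.24 without control replicate 3 and by -0.17 against control replicate 1 alone, and it turned to 0.58 and 0.57 with the marrow and the fibrous mean as a covariate.

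Because these 4 fibulin genes were all called higher, the sequences before their transcription starts are shown for the 3 with an entry that lies outside the transcribed region. They were read from the RefSeq promoter table of build GRCm38.p6, which lists 6 of the 10 genes. Eln, Fbn2, Mfap4 and Mfap5 are the members without an entry, and the Fbln2 window lies inside its gene. Each is written 5′ to 3′ along the gene's own strand and ends at the last base before the outermost annotated start of the gene. Capitals mark matches to 6 short motifs on either strand. They include the TATA box (TATAAA), the CCAAT box, the GC box (GGGCGG), the core of the CRE (TGACG) and the SMAD site (CAGACA). Another is a loose form of the AP-1 site, TGANTCA, where N is any base. No matches overlapped each other.
Fbln1, chr15:85205699-85205948, plus strand: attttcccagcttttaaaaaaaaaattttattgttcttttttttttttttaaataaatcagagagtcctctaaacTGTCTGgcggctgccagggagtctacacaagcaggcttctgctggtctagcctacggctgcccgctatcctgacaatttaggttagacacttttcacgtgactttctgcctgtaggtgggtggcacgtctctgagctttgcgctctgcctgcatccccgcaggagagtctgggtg
Fbln5, chr12:101819120-101819369, minus strand: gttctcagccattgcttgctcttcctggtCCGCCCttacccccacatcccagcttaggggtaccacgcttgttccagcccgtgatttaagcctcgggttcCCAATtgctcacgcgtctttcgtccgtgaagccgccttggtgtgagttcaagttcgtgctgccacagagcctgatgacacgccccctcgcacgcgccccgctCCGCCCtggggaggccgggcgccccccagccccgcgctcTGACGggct
Efemp1, chr11:28852955-28853153, plus strand: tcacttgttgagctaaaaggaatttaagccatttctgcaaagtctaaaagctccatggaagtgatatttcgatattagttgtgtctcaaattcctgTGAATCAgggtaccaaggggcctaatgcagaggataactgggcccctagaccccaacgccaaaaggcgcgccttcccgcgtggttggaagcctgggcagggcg
The 3 sequences shared none of these motifs. The Fbln1 stretch held a SMAD site, in reverse, starting 175 bases before the start, a motif found in 17.1% of all 250-base windows of the table. The Fbln5 stretch held 2 GC boxes, a CCAAT box and a CRE core starting 9 bases before the start, which 32.7%, 33.8% and 17.8% of such windows hold. The Efemp1 stretch of 199 bases held a match to the loose AP-1 form, with the letters TGAATCA. Any match to TGANTCA is held by 5.55% of windows of that length. A TATA box was in none of the 3, and in 12.4% of the 250-base windows. A match describes letters only and is no evidence of binding.

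Among the controls, the levels of 6 of 8 genes ran opposite to the marrow markers. For Fbln1, Fbln2, Fbln5, Efemp1, Mfap4 and Mfap5 the control with the least marrow signal had the highest level and the control with the most had the lowest. The same order was found in 21.4% of all genes tested. Eln and Fbn2 had no such order. The controls ranged more widely than the mutants for 7 of the 8 genes, Eln being the exception, as for 71.0% of all genes. Because these are bulk samples, fewer cells of a type and less RNA per cell cannot be told apart.

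**Figure D2:**
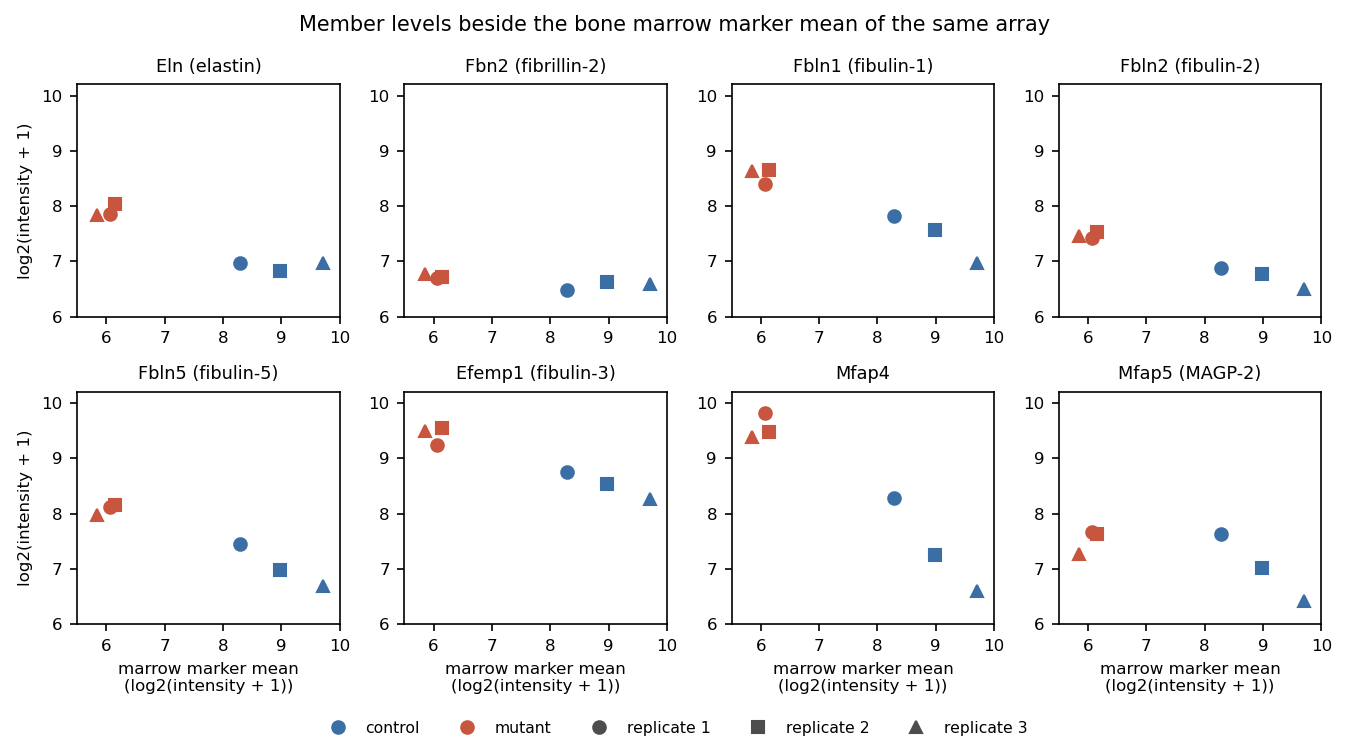
Level of each measured gene against the mean of 26 bone marrow markers on the same array, both as log2(intensity + 1); colours give the group and symbols the replicate number. Marrow means lie at 8.28 to 9.71 in the controls and 5.85 to 6.15 in the mutants with no overlap, and among the controls the level falls with marrow signal for all genes but Eln and Fbn2.

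Markers of connective tissue, vessels and macrophages were higher in the mutants beside these genes. Of 12 tendon and fibrous tissue markers, 7 rose and none fell. The count was 5 without control replicate 2 or mutant replicate 3, and 6 without mutant replicate 2. Tnmd, a tendon membrane protein above background in 1 of 3 controls, rose by 2.38 and Col1a1, the main collagen of fibrous tissue and bone, by 1.91. The mean of the fibrous list was between 8.12 and 8.60 in the controls and between 9.31 and 9.43 in the mutants, and 8 of 12 markers exceeded background in all controls. Of 10 smooth muscle and pericyte markers, 7 rose and 1 fell, with Acta2 (smooth muscle actin) higher by 2.30 and Rgs5 (a pericyte gene) by 2.20. Without control replicate 2, mutant replicate 2 or mutant replicate 3 only 3 were called higher, without mutant replicate 1 only 4, and the lower call (Cspg4) ended in each of these cases and without control replicate 1. Their mean ranged from 7.21 to 7.60 in the controls and from 8.23 to 8.38 in the mutants. Of 10 endothelial markers 7 rose, led by Emcn (1.47) and Cdh5 (1.30), with means of 6.49 to 6.73 and 7.07 to 7.29. The count was 3 without mutant replicate 2 or 3 and 4 without control replicate 2. Only 4 of the 10 exceeded background in all controls and 6 in all mutants, and 1 had a negative difference (-0.47) that was not called. Of 9 macrophage markers 8 rose, with means of 7.25 to 7.48 and 8.05 to 8.54, but 2 without control replicate 2 and 4 without mutant replicate 3. Ms4a7, the largest of these differences at 1.89, was not above background in any control. The calls of skeletal muscle (2 of 6 higher), adipocyte (2 of 5 higher) and osteoblast markers (1 of 5 lower) were fewer, and with 1 array left out these counts were 1 to 3, 0 to 2 and 0 to 2. How far these cells account for the elastic fibre transcripts was not tested.

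The 2 covariate fits give the values once such a marker mean is held fixed, although both means separate the groups completely and so extend a trend over a range without arrays. With the marrow mean, the differences were -0.58 for Fbln1, 0.008 for Fbln2, -0.41 for Fbln5, -0.06 for Efemp1, -1.06 for Mfap4 and -1.73 for Mfap5, while Eln and Fbn2 were at 1.07 and 0.37. With the fibrous mean the same genes, from Fbln1 to Mfap5, were at -0.57, -0.001, -0.20, -0.10, -0.35 and -1.46, and Eln and Fbn2 at 1.03 and 0.29. No member was called in either fit, with limma adjusted p from 0.147 (Eln) to 0.991 (Fbln2) with the marrow mean and from 0.195 (Eln) to 0.999 (Fbln2) with the fibrous mean. At an unadjusted p of 0.05, 1 member was higher and 1 lower in each fit. Of all genes, 4 and 0 were called in these fits. Unadjusted p-values under 0.05 were reached by 3617 and 3020 genes.

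**Figure D3:**
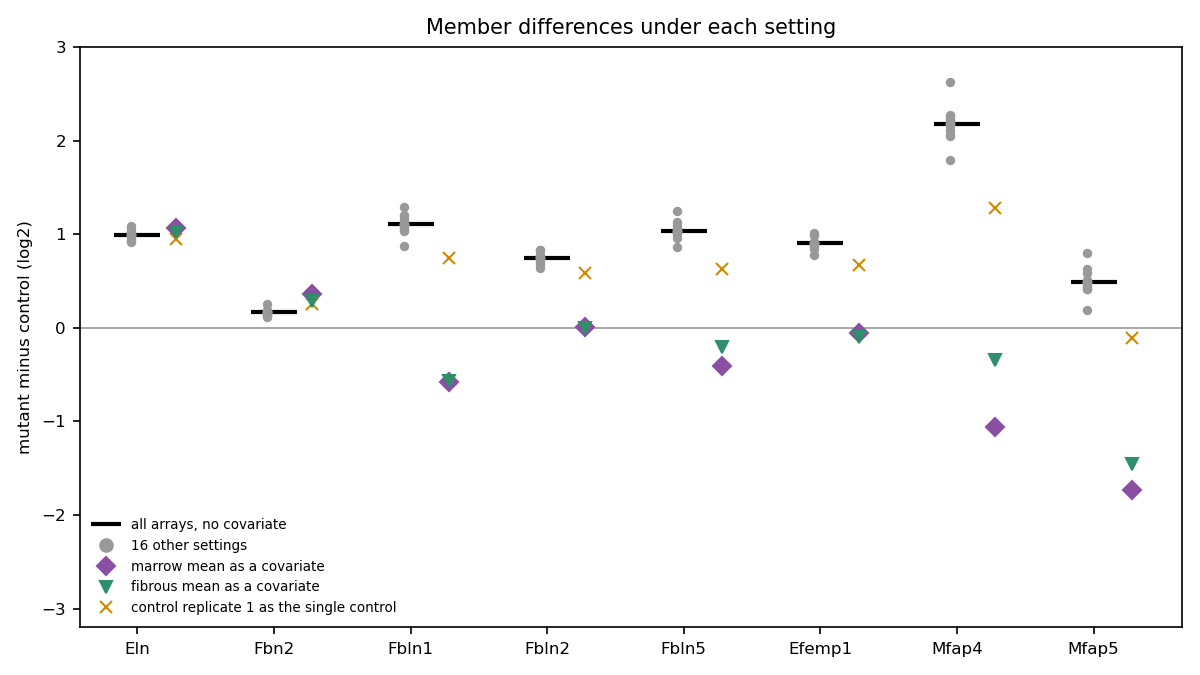
Mutant minus control difference (log2) of each measured gene with all arrays and no covariate (black bar), under 16 other settings of scaling, filtering, variance model or a left-out array (grey), with a marker mean as a covariate (diamond, triangle), and with control replicate 1 as the only control (cross). The Eln values lie between 0.91 and 1.08 in all of these, while those of Fbln1, Fbln5, Efemp1, Mfap4 and Mfap5 lie below 0 with either covariate.

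The genes listed as partners of microfibrils and elastic fibres, with relatives of such genes, gave a mixed picture. Of 16 such partner genes, 6 rose and 1 fell, with a median difference of 0.23. Mfap2 encodes MAGP-1, the other small microfibril glycoprotein. Its level was 8.54, 8.26 and 7.86 in the controls and 9.89, 9.95 and 9.79 in the mutants, a rise of 1.66 (SE 0.17, limma adjusted p = 0.00129), and every mutant was at least 1.25 above every control. Vcan, the versican core protein that binds fibulins and hyaluronan, rose by 1.39, and Ltbp4, a latent TGF-beta binding protein needed for elastic fibre assembly, by 1.05. Emilin2, an elastin microfibril interface protein, fell by 0.93, and this call ended when control replicate 2 or any mutant replicate was left out (adjusted p up to 0.0838). The remaining calls of this list were Ltbp1, Mmrn2 and Ltbp3, each higher, which are named because they complete the count. Mmrn2 was not above background in any control. All 3 calls ended on leaving out mutant replicate 3 (adjusted p of 0.0515, 0.0743 and 0.0942), which left 3 partners called higher, and without mutant replicate 2 the count was 4. With the marrow mean as a covariate the differences were 0.37 for Mfap2, 1.30 for Vcan, 0.009 for Ltbp4 and 0.78 for Emilin2. Among the partners not called, Emilin1 differed by 0.35 (adjusted p = 0.0517).

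The cross-linking enzymes went both ways. Of 4 lysyl oxidase genes tested, 2 rose and 1 fell. Loxl1, the member most closely tied to elastin and a partner of fibulin-5, was at 8.22, 7.99 and 7.46 in the controls and 9.57, 9.39 and 9.50 in the mutants, a rise of 1.60 (SE 0.19, limma adjusted p = 0.00211). Lox rose by 1.33, a call that ended on leaving out mutant replicate 3 (adjusted p = 0.0516). Loxl4 was at 11.60, 11.40 and 11.26 in the controls and 10.03, 9.80 and 10.08 in the mutants, and it fell by 1.45 (SE 0.12, adjusted p = 0.00066). All mutants were thus above all controls for Loxl1 and below them for Loxl4. With the marrow mean as a covariate the differences were 0.06 for Loxl1, -0.64 for Lox and -2.23 for Loxl4.

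Among 11 ADAMTS and ADAMTS-like genes linked to microfibrils, 4 rose and none fell. Adamtsl3, a secreted protein of matrix, rose from at or below background in all controls (6.18, 6.06 and 6.11) to 7.00, 7.15 and 7.09 in the mutants, by 0.97 (SE 0.09, limma adjusted p = 0.00088). Adamtsl4, which binds fibrillin-1 and is known from the zonule of the eye, rose by 0.83. Adamtsl1 (0.43) and Adamts10 (0.40), a protease whose loss causes short stature in humans, were also called. Leaving out any mutant replicate ended both calls, at an adjusted p of up to 0.138 and 0.105. Adamtsl1 also lost its call under quantile normalisation, median centring and no filter, and on leaving out control replicate 2 or 3. Its level was not above background in any control and exceeded it in 2 of 3 mutants. Holding the marrow mean fixed, the differences were 0.82 for Adamtsl3, -0.013 for Adamtsl4, -0.30 for Adamtsl1 and 0.28 for Adamts10.

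Enzymes able to degrade elastin went both ways too. Of 11 genes, 4 rose and 3 fell. The 3 that fell are the serine proteases of neutrophil granules, Elane (-4.85), Ctsg (-3.18) and Prtn3 (-2.71), which are also neutrophil markers in the marrow mean. None of them exceeded background in any mutant. Mmp14, a membrane-bound metalloproteinase, rose by 1.52 (SE 0.16, limma adjusted p = 0.00137), and the other 3 that rose were Ctsk, Ctsl and Mmp2. The Mmp2 call ended on leaving out control replicate 2 or any mutant replicate (adjusted p up to 0.0798). With the marrow mean as a covariate, Elane was at -1.02, Ctsg at 1.27, Prtn3 at 1.61, Mmp14 at 0.38 and Mmp2 at -0.45. Mmp12, the macrophage elastase, differed by 0.69 and was not called (adjusted p = 0.125). Mmp9 was not called either (limma adjusted p = 0.0594), with a difference of -1.04 and every mutant below every control. With the marrow mean as a covariate it was at 1.67.

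Receptors and growth factor genes tied to elastic fibre proteins also went both ways. Of 9 integrin genes tested, 3 rose and 1 fell. Itgb5, a partner of the alpha-v chain that binds RGD motifs, was at 9.35, 9.37 and 9.11 in the controls and 10.09, 10.08 and 10.08 in the mutants, a rise of 0.81 (SE 0.10, limma adjusted p = 0.00267). Itga9 rose by 0.89 from below background in all controls. Itgb1, the chain common to many matrix integrins, rose by 0.39, a call lost on leaving out control replicate 2 or any mutant replicate (adjusted p up to 0.102). Itga4, a chain abundant on leukocytes, fell by 2.16 to below background in all mutants, and its adjusted p was 0.0511 when mutant replicate 3 was left out. The marrow covariate gave differences of 0.32 for Itgb5, 1.03 for Itga9, 0.26 for Itgb1 and 1.29 for Itga4. Of 9 TGF-beta genes, 3 rose and 1 fell. Tgfb3 rose by 0.71, Tgfbr3 by 0.61 and Eng, an endothelial co-receptor, by 0.48, while Smad7, an inhibitor induced by the pathway, fell by 0.40. Each of these 4 calls ended on leaving out mutant replicate 1 or mutant replicate 3, at an adjusted p of up to 0.0613, 0.0897, 0.155 and 0.155. Those of Eng and Smad7 also ended under median centring and on leaving out control replicate 2 or mutant replicate 2, that of Tgfbr3 on leaving out control replicate 2, that of Smad7 on leaving out control replicate 1 or centring on chondrocyte markers, and that of Eng with no filter. In the fit with the marrow covariate Tgfb3 was at -0.16, Tgfbr3 at 0.098, Eng at 0.33 and Smad7 at -0.86.

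**Figure D4:**
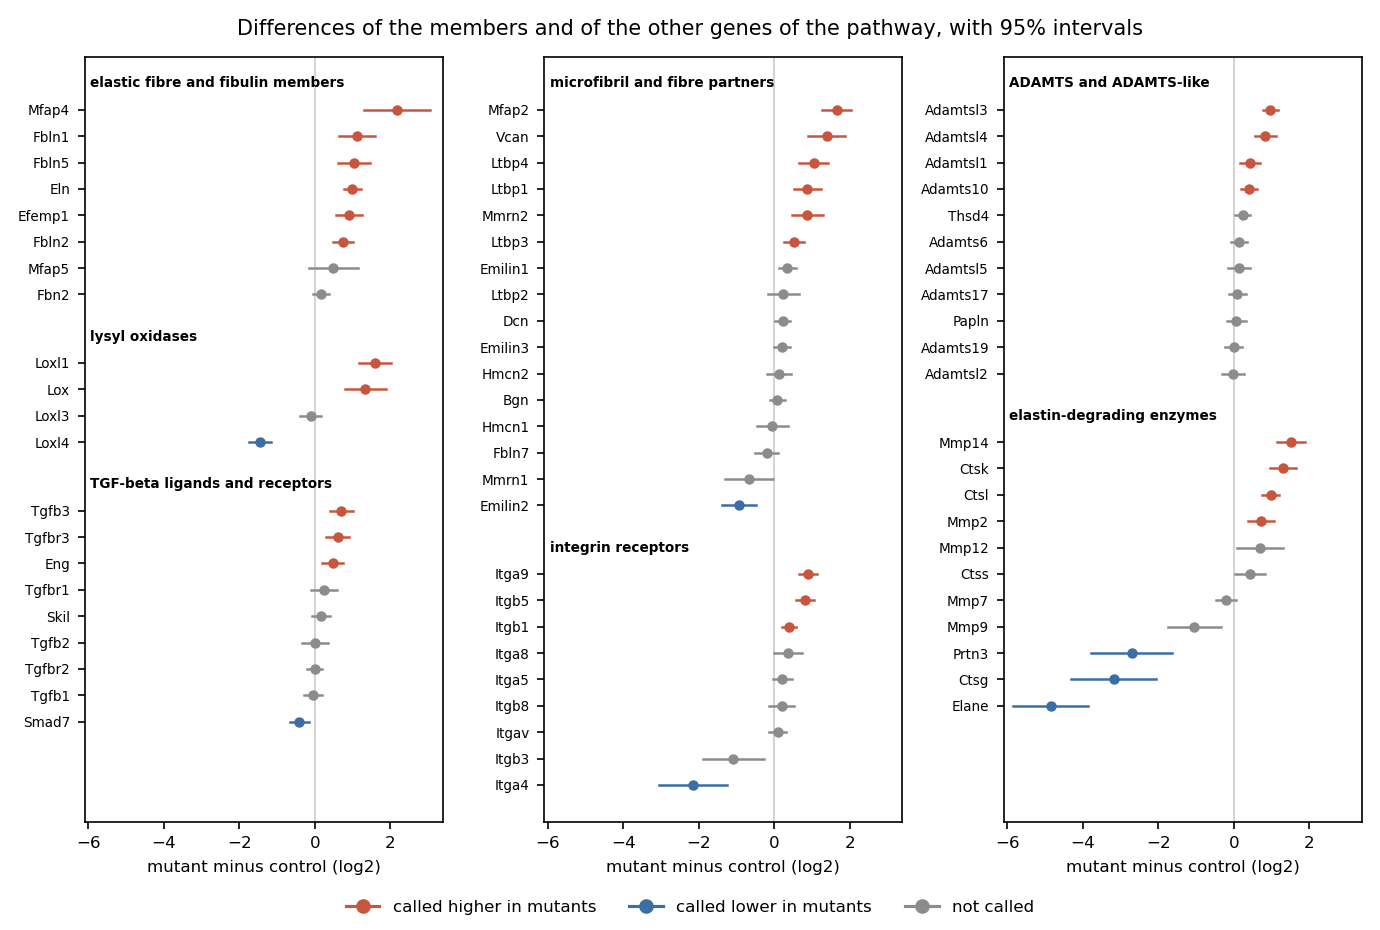
Mutant minus control difference (log2) with its 95% interval for the measured members and for the genes of 6 related lists; red and blue mark genes called higher or lower at a limma adjusted p of at most 0.05, grey those not called. Mfap4 has the largest rise among the members at 2.18, Mfap2 among the partners at 1.66, and the 3 neutrophil proteases have the lowest values.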

How the data were processed

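Total RNA was labelled as biotinylated cDNA with a whole-transcript kit, per the labels' protocols, and each of 6 samples was hybridised to an Affymetrix array. The authors deposited linear intensities for 35512 probe sets; the probe summary, background correction and normalisation are not given in the sources used here. Array medians were 82.4 to 90.5. The platform annotation named a single gene for 21789 probe sets, several genes for 1621 and had no entry for 12102. Symbols were updated by gene number to RefSeq (GRCm38.p6), with 21698 matches.

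Values were transformed to log2(intensity + 1). Dim probe sets, the lowest 25% by mean (below 5.56), were dropped, and of several sets of a gene the brightest was kept, giving 17020 genes. The mutant and control arrays were fitted in R 4.3.3 using limma 3.58.1 (lmFit and eBayes; two-sided p-values, adjusted over all genes by Benjamini-Hochberg, called at 0.05). The fit was run on simulated data with independent noise and the same spread in both groups, which checks the code only. In the real data the controls ranged more widely than the mutants for 71.0% of genes. The members and lists were chosen with earlier results of these data known. All members are named, and of each pathway list up to 4 called genes with the largest difference, of each marker list up to 2. Ltbp1, Mmrn2, Ltbp3, Fbln7, Emilin1, Ctsk, Ctsl, Mmp2, Mmp9, Mmp12, Panx3, Col10a1 and Cspg4 were added after their values were seen. Of 4 planned pairs of members, 2 had both genes. Alternatives covered scaling, filters, probe sets, pseudocount (16), variance models, a replicate block, left-out arrays and covariates. Centring on chondrocyte markers, and the covariates and the single control for the pairs, were added after seeing the data. All columns matched a sample, and 0 were left out.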

Additional observations from a re-analysis of the deposited data

How the results depend on the processing

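With 3 arrays per group the precision is limited, and signals near the background limit the changes of Fbn2, Fbln2, Mfap4 and Mfap5. Under 16 settings without a covariate and with at least 2 arrays per group, all 8 member differences stayed positive. Eln, Fbln2, Fbln5, Efemp1 and Mfap4 were called in all 16, Fbln1 in 14, Mfap5 in 2 and Fbn2 in none. The count of members called higher, 6, was 5 to 7 with 1 array left out, 7 with array weights, and 0 with the marrow mean as a covariate and 0 with the fibrous mean. The count called lower was 0 throughout. The count over all genes, 2496, was 935 to 3265 with 1 array left out, 8006 with array weights, 4 with the marrow mean and 0 with the fibrous mean. Differences that turned sign were, with the marrow mean, Fbln1 (-0.58), Fbln5 (-0.41), Efemp1 (-0.058), Mfap4 (-1.06) and Mfap5 (-1.73); with the fibrous mean, Fbln1 (-0.57), Fbln2 (-0.00097), Fbln5 (-0.20), Efemp1 (-0.10), Mfap4 (-0.35) and Mfap5 (-1.46); and with control replicate 1 as the single control, Mfap5 (-0.11). That last setting gives values without a p, since it holds no spread among controls. Of the 2 differences between related members, Fbln2 minus Fbln1 (-0.37) was -0.47 to -0.24 and Mfap5 minus Mfap4 (-1.68) was -1.83 to -1.60 with 1 array left out. In settings added after seeing the data, the first turned to 0.58 with the marrow mean and 0.57 with the fibrous mean, and the second was -0.67, -1.11 and, with control replicate 1 as the single control, -1.39.

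Centring on chondrocyte markers, chosen after seeing the data, called 1773 genes higher and 703 lower, against 1335 and 1161, with the same 6 members called higher. Of 32 pathway genes named, Mmp9 not counted, 29 were called, 15 of these in every setting that tested them without a covariate. Of the 32, 10 turned sign with the marrow mean and 11 with the fibrous mean. Replicate numbers are shared between the groups, but the labels name no shared animal or batch, and same-numbered arrays deviated together at r = 0.08, 0.21 and -0.08. Of the 6 arrays, 3 correlated best with their own number. With the replicate number as a block 2031 genes were called, and 6 members higher and 0 lower. Of the pathway genes named, Adamtsl1, Itgb1, Eng and Smad7 lost their calls with the block.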
